A study of Mus musculus with 13 samples.

Results

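The genes described here encode the parts with which a cell loads peptides on major histocompatibility complex (MHC) class I molecules, together with the immunoproteasome that cuts those peptides. The set held 10 genes, H2-K1, H2-D1, B2m, Tap1, Tap2, Tapbp, Psmb8, Psmb9, Psmb10 and Nlrc5, of the 23366 genes in the expression table. They were chosen by name, for their roles, with earlier results of these data known, and found in the table by their Entrez identifiers. The study asked what a single cycle of in vivo reprogramming does to old tissue, and RNA from the pancreas of 13 female mice was sequenced with 1 library per mouse. Levels are given as log2 RPKM, the log2 of reads scaled to transcript length and to library size, as estimated and quantile normalised by the authors. All mice belonged to the i4F-B line, whose ubiquitous transgene, inserted in the Pparg gene, expresses OCT4, SOX2, KLF4 and MYC (OSKM) under doxycycline. Young mice (13 weeks, n = 4) and old mice (55 weeks, n = 5) carried the transgene without receiving doxycycline. The old-OSKM mice (n = 4) drank doxycycline in sucrose water for 7 days from 55 weeks of age and recovered for 2 weeks, which made them 58 weeks old by their labels. Induced expression of the transgene, the drug with its sucrose and the added weeks of age therefore cannot be told apart in any comparison with this group. Bulk RNA does not tell which pancreatic cells expressed the transgene in these mice. The 10 acinar markers summed to between 10997 and 11727 RPKM in the 13 mice, led by the chymotrypsinogen gene Ctrb1, as the label pancreas requires, although quantile normalisation holds the highest ranks nearly fixed and so limits how far this sum can vary.

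Class I molecules show fragments of the proteins made inside a cell to cytotoxic T cells. Proteasomes cut the proteins, the TAP transporter carries the peptides into the endoplasmic reticulum, tapasin holds an empty heavy chain beside TAP, and the filled heavy chain travels to the surface with beta-2-microglobulin. Interferon-gamma raises most of these genes, in part through IRF1 and NLRC5, and exchanges catalytic proteasome subunits for inducible ones. Leukocytes in a tissue carry much class I, whereas exocrine pancreas cells are known for a low basal level.

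Old-OSKM mouse 4, and by less old-OSKM mouse 1 and young mouse 4, stood apart from the other libraries. Across the 8410 genes with a mean above 0 log2 RPKM, the median correlation of a library with the others was 0.895 for old-OSKM mouse 4 and 0.9596 for old-OSKM mouse 1. Young mouse 4 had 0.962, and the other mice had medians of 0.975 to 0.982. Old-OSKM mouse 4 held the highest value of the 13 mice in 23.96% of these genes, against 6.81% for old-OSKM mouse 1 and 11.1% for young mouse 1. Over all 23366 genes, low ones included, young mouse 2 was the highest in 18.1%, old-OSKM mouse 4 in 15.98%, old-OSKM mouse 3 in 10.2% and old-OSKM mouse 1 in 8.504%. In the class I set old-OSKM mouse 1 came first. It was the highest of all mice in 9 of the 10 genes, and old-OSKM mouse 4 was second in 7 of them. The median over the set is therefore given without each of these mice, and the values of single genes without old-OSKM mouse 1. Young mice 3 and 4 and old mouse 5 had sample identifiers in a run of their own, what that run stands for is not given in the sources used here, and values from the other 10 mice are given where they differ.

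The 10 genes covered a wide range of levels. Averaged over the 13 mice, the level was 3.85 log2 RPKM for B2m (14.5 RPKM), 3.12 for H2-D1, 3.103 for Psmb10, 2.99 for H2-K1 and 2.199 for Tapbp. Lower down stood Tap2 at 0.77, Tap1 at 0.17, Psmb8 at 0.15, Psmb9 at -0.45 and the regulator Nlrc5 at -1.96 log2 RPKM (0.257 RPKM). Neighbours in this order were not all separated. H2-D1 exceeded Psmb10 in 3 of 13 mice, Psmb10 exceeded H2-K1 in 10 of 13 and Tap1 exceeded Psmb8 in 7 of 13, so these places in the order lay within the spread between mice. Tap2 was above Tap1 in 12 of 13 mice, and the remaining neighbours kept their order in 13 of 13. Within groups the residual SD, pooled over the 3 groups, ran from 0.14 for Psmb10 to 0.65 for Nlrc5 on the log2 scale.

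**Figure D1:**
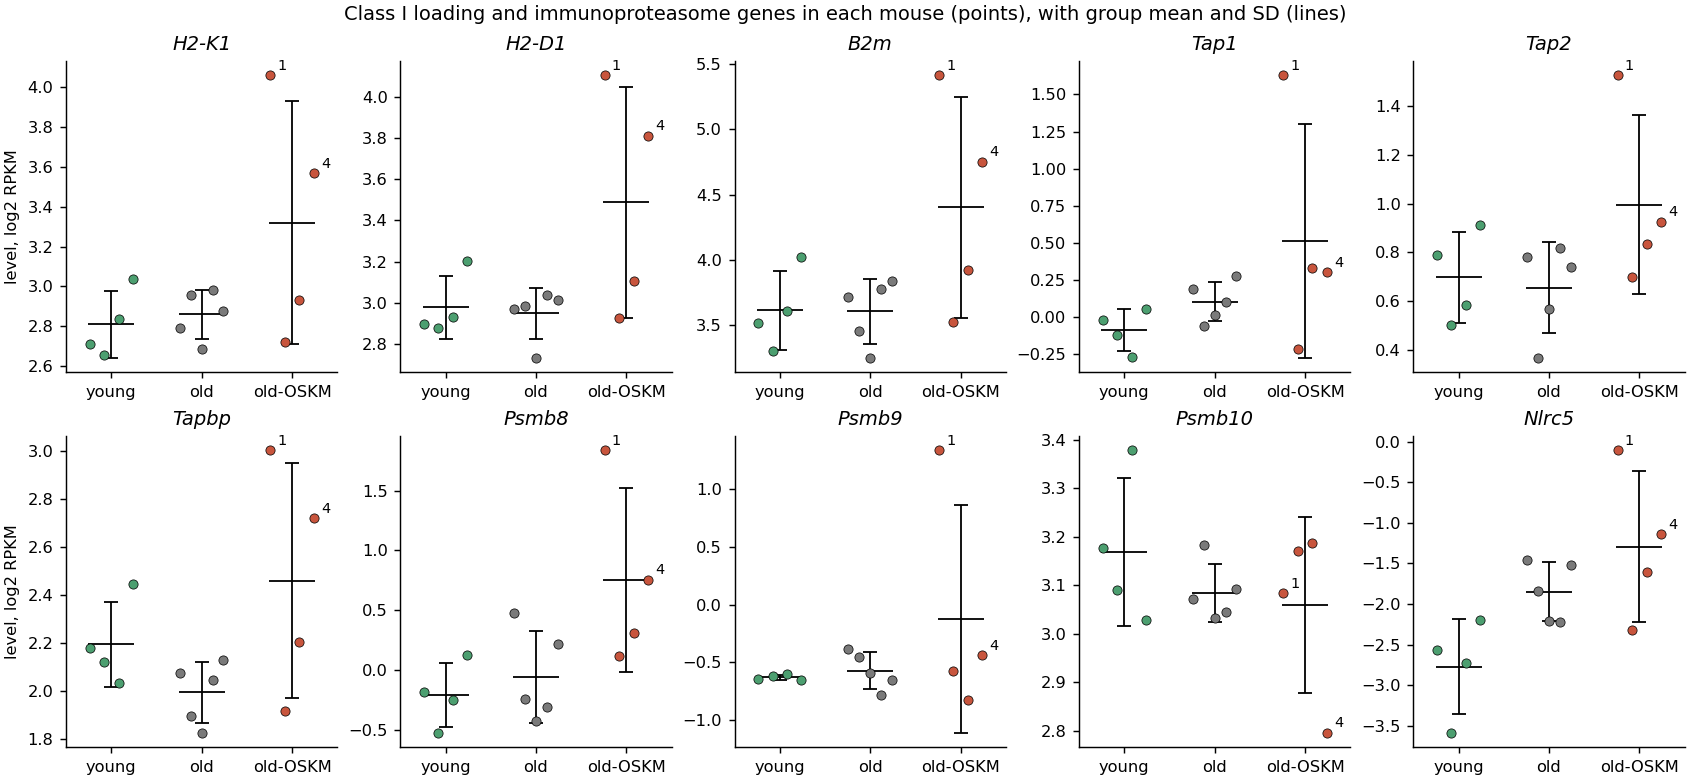
Level (log2 RPKM, a separate vertical axis for each gene) of the 10 genes in each of 13 mice, by group, with the group mean and SD as lines. The digits 1 and 4 mark old-OSKM mice 1 and 4, of which mouse 1 is the highest mouse in 9 of 10 genes, while Psmb10 peaks in a young mouse.

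After OSKM, 9 of the 10 genes had a higher mean in old-OSKM than in old mice, with Psmb10 as the exception, against a background of 36.9% of all genes with a higher mean. The 9 differences lay between 0.34 (Tap2) and 0.81 (Psmb8) on the log2 scale, and the median over the 10 genes was 0.46 against -0.039 over all 23366 genes. A gene was called where it passed the study's rule, a fold change over 1.5 with an unadjusted p under 0.01 in limma, or, more strictly, an adjusted p under 0.05. By the first rule 0 of the 10 genes were called, with 0.753% of all genes as background. By the second rule 0 of 10 were called as well, with 0.00428% of all genes, that is 1 gene, as background. At an unadjusted limma p under 0.05 there were 4 of 10, H2-D1, B2m, Tapbp and Psmb8, against 8.07% of all genes. The old-OSKM and old values overlapped in each of the 10 genes, where 1.73% of all genes had groups that did not overlap.

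These differences rested on few mice. Without old-OSKM mouse 1 the median over the 10 genes was 0.19, 8 of 10 means were still higher and 0 of 10 reached an unadjusted limma p under 0.05. Without old-OSKM mouse 4 the median was 0.45, 10 of 10 means were higher and 0 of 10 reached that threshold. Without old-OSKM mice 1 and 4, a step chosen after the data were seen, the median was 0.067 and 6 of 10 means were higher. In the other direction, leaving out old-OSKM mouse 2 brought 5 genes past the study's rule, with differences of 0.66 for H2-K1, 0.73 for H2-D1, 1.09 for B2m, 0.65 for Tapbp and 1.03 for Psmb8. In that fit the rule called 338 of all 23366 genes, against 176 with all mice. In bulk tissue a change in the share of a cell type and a change in RNA per cell cannot be told apart.

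Between old and young mice the set showed no common direction. The mean was higher in old mice for 5 of 10 genes, against 54.4% of all genes, and the median difference was 0.021 on the log2 scale. Without young mouse 4 it was 0.086, with 8 of 10 means higher. In this comparison 0 of 10 genes were called by the study's rule (background 0.886%) and 0 of 10 by adjusted p (background 0.0813%). At an unadjusted limma p under 0.05 there was 1 of 10, Nlrc5, with 5.52% of all genes as background. Groups overlapped in each of the 10 genes, against 2.71% of all genes that did not overlap. Intervals were wide enough to hold moderate changes, as for B2m, whose difference was -0.0073 (SE 0.33, 95% interval -0.72 to 0.70).

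Old-OSKM against young mice, a comparison that shares its mice with the ones above, gave a higher mean in 9 of 10 genes (background 38.7%) and a median of 0.51, or 0.24 without old-OSKM mouse 1, 0.52 without old-OSKM mouse 4 and 0.59 without young mouse 4. By the study's rule 1 of 10 was called, Nlrc5, against 0.625% of all genes. By adjusted p it was 0 of 10, against 0.0428%. At an unadjusted limma p under 0.05 there were 4 of 10, H2-D1, B2m, Psmb8 and Nlrc5, against 5.07%. No gene of the set had groups that did not overlap, which 1.9% of all genes had. Without old-OSKM mouse 2, H2-K1 (0.71), H2-D1 (0.70), B2m (1.08) and Psmb8 (1.18) passed the study's rule as well. In that fit the rule called 253 of all 23366 genes, against 146 with all mice.

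**Figure D2:**
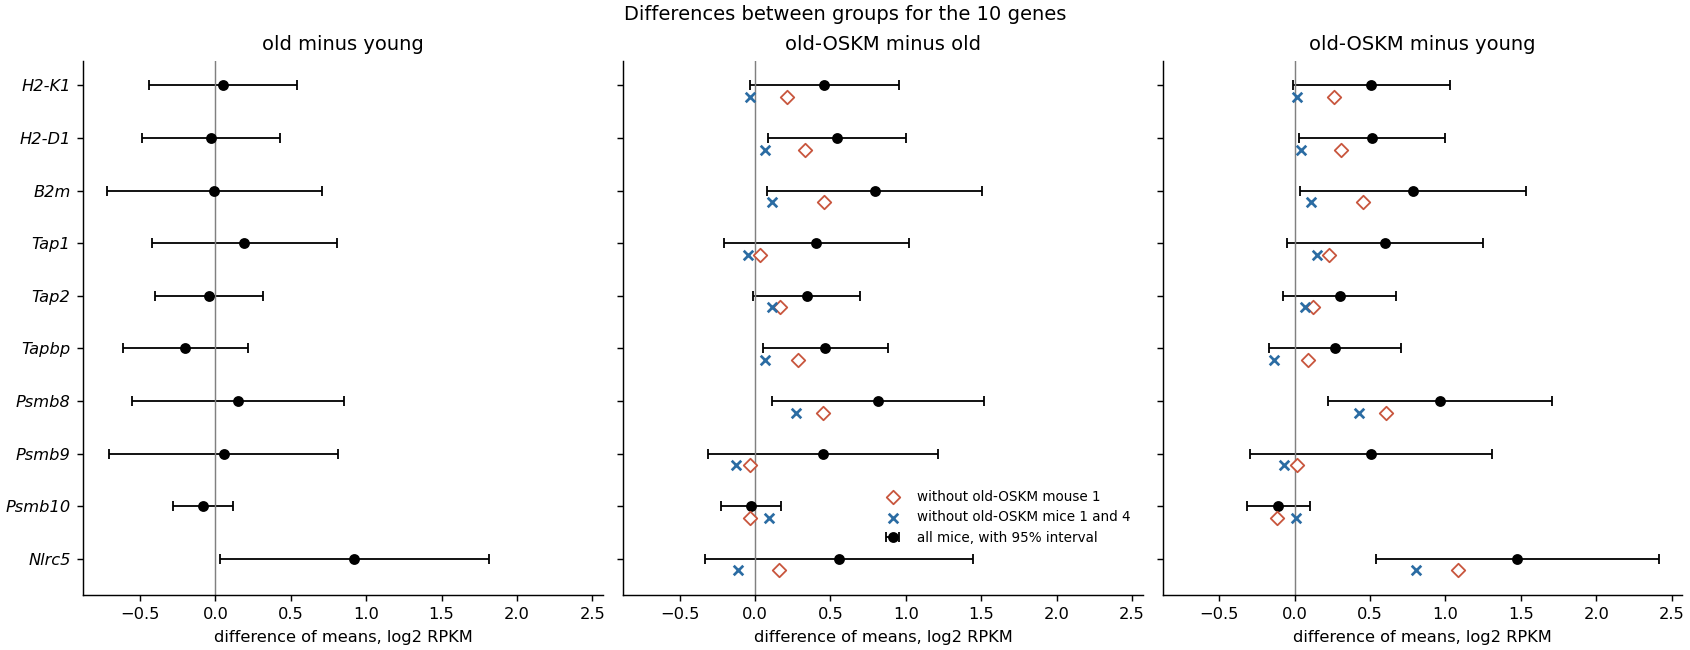
Difference of group means (log2 RPKM) for the 10 genes in each comparison: black points with 95% limma intervals from all 13 mice, open diamonds without old-OSKM mouse 1, crosses without old-OSKM mice 1 and 4. In old-OSKM minus old the points of 9 genes lie between 0.34 and 0.81, and the diamonds between -0.037 and 0.46.

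The classical heavy chains H2-K1 and H2-D1, which hold the peptide, moved together from mouse to mouse. H2-K1 (Entrez 14972, chr17:33996012-34000619) stood at 2.71, 2.66, 2.83 and 3.04 log2 RPKM in young mice 1 to 4, 2.79, 2.96, 2.69, 2.98 and 2.88 in old mice 1 to 5 and 4.06, 2.72, 2.93 and 3.57 in old-OSKM mice 1 to 4. Old-OSKM mice 1 and 4 lay above every other mouse, whereas old-OSKM mice 2 and 3 lay inside the range of the old mice. The 5 old mice averaged 2.86 (SD 0.12), and the 4 old-OSKM mice 3.32 (SD 0.61). The difference of 0.46 (SE 0.22, 95% interval -0.033 to 0.95) did not pass (with a Benjamini-Hochberg adjusted p of 0.555 in limma), and it was 0.21 without old-OSKM mouse 1. H2-D1 (Entrez 14964, chr17:35263094-35267497) stood at 2.896, 2.88, 2.93 and 3.203 log2 RPKM in young mice 1 to 4, 2.97, 2.98, 2.73, 3.04 and 3.01 in old mice 1 to 5 and 4.11, 2.92, 3.11 and 3.81 in old-OSKM mice 1 to 4. Here too old-OSKM mice 1 and 4 were the highest pair, old-OSKM mouse 3 exceeded the old mice but not young mouse 4, and old-OSKM mouse 2 lay among the old mice. Old-OSKM minus old was 0.54 (SE 0.21, 95% interval 0.083 to 1.00), with a Benjamini-Hochberg adjusted p of 0.547 in limma, and 0.33 without old-OSKM mouse 1. Both genes belong to a family of near-identical class I genes, and because reads with 5 or more locations were dropped upstream, the share of reads each of them kept is uncertain.

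B2m (Entrez 12010, chr2:122147687-122153082) encodes beta-2-microglobulin, the light chain that every class I heavy chain needs. It was the most abundant gene of the set, at 3.52, 3.303, 3.61 and 4.02 log2 RPKM in young mice 1 to 4, 3.71, 3.46, 3.25, 3.78 and 3.84 in old mice 1 to 5 and 5.41, 3.53, 3.92 and 4.75 in old-OSKM mice 1 to 4. The pattern was that of the heavy chains: old-OSKM mouse 1 first, old-OSKM mouse 4 second, old-OSKM mouse 3 just above the old mice and below young mouse 4, and old-OSKM mouse 2 among the old mice. Relative to the old mean, old-OSKM mouse 1 was 3.49-fold and old-OSKM mouse 4 2.21-fold higher. The group difference of 0.79 (SE 0.33, 95% interval 0.081 to 1.51), a fold of 1.73, had a Benjamini-Hochberg adjusted p of 0.547 in limma. Without old-OSKM mouse 1 it was 0.46. A transcript of Patl2 in the GENCODE vM21 annotation runs on the opposite strand next to B2m, and whether reads were assigned by strand is not given in the sources used here.

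Promoters of the set were searched because most of its genes moved together, although Psmb10 did not and Psmb9 did so through old-OSKM mouse 1. RefSeq promoters on GRCm38.p6, 250 bases before to 50 after a start, were found for 8 of the 10 genes (Tap2 and Nlrc5 had no entry), with 2 overlapping entries for H2-K1, and searched on both strands. Counts for the set are per gene, and shares of all promoters are per entry. TGACG, the core of a cyclic AMP response element that is part of the X box of class I and class II promoters, was in the promoters of 5 of 8 genes and in 20.8% of all 32851 promoters. The matches were in H2-K1, H2-D1, B2m, Tap1 and Psmb9, the last pair sharing a single match between their starts, so the 5 genes are not 5 separate matches. Tapbp and Psmb8, which moved with the set, and Psmb10 had none. Below are 30 bases around it, 5′ to 3′, with TGACG in capitals: H2-K1 chr17:34000371-34000400 on the minus strand, inside the RefSeq span of the gene and in no GENCODE vM21 transcript, H2-D1 chr17:35262981-35263010 on the plus strand, before the RefSeq start and in the 5′ UTR of a longer GENCODE transcript, B2m chr2:122147597-122147626 on the plus strand, before the start and in an intron of Patl2 on the other strand, and Tap1 chr17:34187458-34187487 on the plus strand, before the Tap1 start and in the 5′ UTR of a longer GENCODE transcript of Psmb9 on the other strand.
H2-K1: tccggacactgtTGACGcgcagtcagctct
H2-D1: ccgggacactgaTGACGcgctggcaggtct
B2m: ctaggagactggTGACGacctccggatctg
Tap1: cccagagacaggTGACGacagagggtcctg
The H2-K1 and H2-D1 windows were identical at 24 of 30 bases, and the B2m and Tap1 windows at 20 of 30. A match describes the letters of a window and is no measured binding site.

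The heavy chains also shared the kappa-B sequence GGGATTCCC, found in 2 of 8 genes of the set and in 0.353% of all promoters. In both genes it was followed within the same 30 bases by an interferon-response-like match, GAANNGAAA read on the other strand, a spacing that was added after the promoters had been read and that 2 of 8 genes of the set and 7.52% of all promoters held. Capitals mark both matches in H2-K1 (chr17:34000429-34000458, minus strand, in no GENCODE vM21 transcript) and H2-D1 (chr17:35262923-35262952, plus strand, in the 5′ UTR of the longer GENCODE transcript).
H2-K1: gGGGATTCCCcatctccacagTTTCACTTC
H2-D1: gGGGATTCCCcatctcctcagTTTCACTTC
The opposite spacing, GAAANNGAA, was in the promoter of B2m alone among the 8 and in 8.56% of all promoters.

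Tap1 and Tap2 encode the partner chains of the TAP transporter, which moves peptides into the endoplasmic reticulum. Tap1 (Entrez 21354, chr17:34187556-34197225) stood at -0.020, -0.12, -0.26 and 0.056 log2 RPKM in young mice 1 to 4, 0.19, -0.057, 0.017, 0.10 and 0.27 in old mice 1 to 5 and 1.63, -0.22, 0.33 and 0.30 in old-OSKM mice 1 to 4. Old-OSKM mouse 1 was alone at the top, 1.295 above the next mouse, old-OSKM mice 3 and 4 were just above the old mice, and old-OSKM mouse 2 was below them. The difference from old mice was 0.41 (SE 0.28, 95% interval -0.21 to 1.02) with a Benjamini-Hochberg adjusted p of 0.608 in limma, and 0.035 without old-OSKM mouse 1. Tap2 (Entrez 21355, chr17:34204479-34216321) stood at 0.79, 0.50, 0.58 and 0.91 log2 RPKM in young mice 1 to 4, 0.78, 0.37, 0.57, 0.82 and 0.74 in old mice 1 to 5 and 1.53, 0.70, 0.83 and 0.93 in old-OSKM mice 1 to 4. Old-OSKM mouse 1 led again, by 0.60, while old-OSKM mice 3 and 4 barely exceeded the old mice. Old-OSKM mouse 3 lay within the range of the young mice, and old-OSKM mouse 4 just above it. Its difference of 0.34 (SE 0.16, 95% interval -0.014 to 0.70) was the smallest among the 9 genes with a higher mean (with a Benjamini-Hochberg adjusted p of 0.547 in limma), and it was 0.16 without old-OSKM mouse 1.

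Tapbp (Entrez 21356, chr17:33919478-33929290) encodes tapasin, the chaperone that bridges TAP and the heavy chain. Its levels were 2.18, 2.12, 2.03 and 2.45 log2 RPKM in young mice 1 to 4, 2.07, 1.897, 1.83, 2.04 and 2.13 in old mice 1 to 5 and 3.004, 1.92, 2.202 and 2.72 in old-OSKM mice 1 to 4. Old-OSKM mice 1 and 4 exceeded the other mice, old-OSKM mouse 3 lay just above the old mice, and young mice as a group sat slightly above old ones with overlap. Old-OSKM minus old was 0.47 (SE 0.19, 95% interval 0.053 to 0.88), with a Benjamini-Hochberg adjusted p of 0.547 in limma, and it was 0.29 without old-OSKM mouse 1. Against young mice the difference was only 0.27 (SE 0.20, 95% interval -0.17 to 0.70), with a Benjamini-Hochberg adjusted p of 0.706 in limma, and 0.086 without old-OSKM mouse 1.

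Of the inducible catalytic subunits of the proteasome, Psmb8 (LMP7) varied most between groups. Psmb8 (Entrez 16913, chr17:34198195-34201454) stood at -0.19, -0.53, -0.25 and 0.12 log2 RPKM in young mice 1 to 4, 0.47, -0.25, -0.43, -0.31 and 0.22 in old mice 1 to 5 and 1.84, 0.12, 0.31 and 0.75 in old-OSKM mice 1 to 4. Old-OSKM mice 1 and 4 were the highest, and old mice 1 and 5 reached above the young. Old-OSKM mouse 2 lay between the lower and the upper old mice, and old-OSKM mouse 3 between old mice 5 and 1. The difference from old mice, 0.81 (SE 0.32, 95% interval 0.11 to 1.52), was the largest of the set, at a fold of 1.76, and had a Benjamini-Hochberg adjusted p of 0.547 in limma. Without old-OSKM mouse 1 it was 0.45. Against young mice it was 0.97 (SE 0.34, 95% interval 0.22 to 1.71) with a Benjamini-Hochberg adjusted p of 0.706 in limma, and 0.60 without old-OSKM mouse 1. That comparison passed the study's rule when only genes with a mean above 0 were fitted.

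Psmb9 (LMP2, Entrez 16912, chr17:34182030-34187330) differed between old-OSKM and old mice through a single mouse, as Tap1 largely did. It stood at -0.64, -0.62, -0.60 and -0.65 log2 RPKM in young mice 1 to 4, -0.38, -0.45, -0.59, -0.79 and -0.66 in old mice 1 to 5 and 1.34, -0.57, -0.83 and -0.44 in old-OSKM mice 1 to 4. Old-OSKM mouse 1 lay 1.72 above the next mouse, whereas old-OSKM mice 2, 3 and 4 were spread over the range of the old mice and below it. The difference from old mice was 0.45 (SE 0.35, 95% interval -0.31 to 1.21) with a Benjamini-Hochberg adjusted p of 0.608 in limma, and it turned to -0.037 without old-OSKM mouse 1. The young mice were within 0.050 of each other. The starts of Psmb9 and Tap1 lie 226 bases apart on opposite strands, and Psmb9, Tap1, Psmb8 and Tap2 together span 34292 bases.

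Psmb10 (MECL-1, Entrez 19171, chr8:105935728-105938392) was the exception of the set. It stood at 3.18, 3.09, 3.38 and 3.03 log2 RPKM in young mice 1 to 4, 3.07, 3.18, 3.03, 3.04 and 3.09 in old mice 1 to 5 and 3.08, 3.17, 3.19 and 2.795 in old-OSKM mice 1 to 4. No group stood out, old-OSKM mouse 4 was the lowest of all mice and young mouse 3 the highest, and old-OSKM mouse 1 lay among the old mice. Old-OSKM minus old was -0.026 (SE 0.090, 95% interval -0.22 to 0.17) with a Benjamini-Hochberg adjusted p of 0.897 in limma. At 8.59 RPKM it was also far more abundant than Psmb8 and Psmb9. Ctrl, a chymotrypsin-like protease gene of acinar cells with a mean of 9.91 log2 RPKM, lies 1866 bases away on chromosome 8, and its part in the Psmb10 value was not tested.

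Each inducible subunit takes the place of a constitutive one, so the log2 ratio of the pair within a mouse compares their RNA levels. It cancels a scale factor shared by the library, but not the changes by rank that quantile normalisation makes. For Psmb8 to Psmb5 the log2 ratio was -2.62, -2.88, -2.63 and -2.14 in young mice 1 to 4, -1.96, -2.52, -2.93, -2.79 and -2.05 in old mice 1 to 5 and -0.64, -2.51, -2.14 and -0.95 in old-OSKM mice 1 to 4. Old-OSKM mice 1 and 4 stood clear of all other mice, and old-OSKM mice 2 and 3 lay within the old range. The mean ratio was 0.89 higher in old-OSKM than in old mice (two-sided exact permutation p = 0.127, Benjamini-Hochberg adjusted p over the 9 ratio tests = 0.571) and 1.01 higher than in young mice (exact permutation p = 0.0571, adjusted p = 0.514). Without old-OSKM mouse 1 the difference from old mice was 0.58, and 0.69 without old-OSKM mouse 4. That mouse had the lowest Psmb5 of the 13 mice, 1.71 log2 RPKM, so its ratio reflects a low Psmb5 beside a high Psmb8. On a linear scale Psmb8 was 0.183 of Psmb5 in old mice by the geometric mean and 0.642 of it in old-OSKM mouse 1, so Psmb5 stayed the more abundant of the pair in each mouse.

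For Psmb9 to Psmb6 the log2 ratio was -2.88, -2.87, -2.84 and -2.75 in young mice 1 to 4, -2.66, -2.71, -2.97, -3.16 and -2.82 in old mice 1 to 5 and -1.07, -2.99, -3.17 and -2.28 in old-OSKM mice 1 to 4. Old-OSKM mouse 1 stood far above the rest, old-OSKM mouse 4 came next, and the other old-OSKM mice were at the low end. The Psmb9 level of old-OSKM mouse 4 lay inside the range of the old mice, and its place in the ratio came with the lowest Psmb6 of the 13 mice, 1.85 log2 RPKM. The mean was 0.49 higher than in old mice (exact permutation p = 0.365, adjusted p = 0.643), 0.048 without old-OSKM mouse 1 and 0.45 without old-OSKM mouse 4. For Psmb10 to Psmb7 the log2 ratio was 0.65, 0.68, 0.93 and 0.75 in young mice 1 to 4, 0.72, 0.73, 0.50, 0.59 and 0.75 in old mice 1 to 5 and 0.54, 0.57, 0.67 and 0.78 in old-OSKM mice 1 to 4. Here the inducible gene was the more abundant in every mouse, and the groups lay on top of each other, with a difference of -0.020 between old-OSKM and old mice (exact permutation p = 0.8095, adjusted p = 0.825) that was 0.014 without old-OSKM mouse 1. The smallest p these permutation tests could give was 0.0159 for 5 against 4 mice and 0.0286 for 4 against 4, and 0 of the 9 tests had an unadjusted p under 0.05. Psmb5, Psmb6 and Psmb7 themselves differed by -0.074, -0.034 and -0.0059 between old-OSKM and old mice on the log2 RPKM scale. These means include old-OSKM mouse 4, which was the lowest of all mice in each of the 3 genes (Psmb7 at 2.01), with a sum over the 3 of 10.9 RPKM against 13.9 to 17.6 in the other 12 mice.

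**Figure D3:**
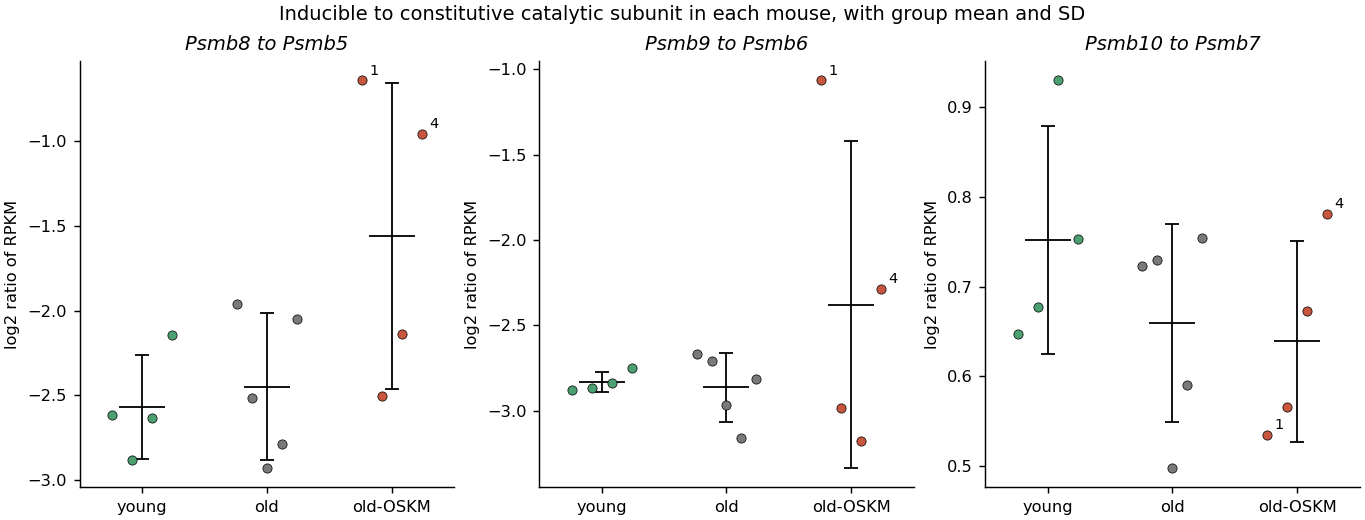
Log2 ratio of RPKM of each inducible catalytic subunit to the constitutive subunit it replaces, 1 point per mouse by group, with group mean and SD and a separate vertical axis for each pair. Old-OSKM mice 1 and 4, marked by their digits, are the highest in Psmb8 to Psmb5 and Psmb9 to Psmb6 but not in Psmb10 to Psmb7.

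Nlrc5 (Entrez 434341, chr8:94434335-94527272), the transactivator of class I promoters, was the least abundant gene of the set and the member that was called in 1 comparison. It stood at -2.57, -3.59, -2.73 and -2.198 log2 RPKM in young mice 1 to 4, -1.46, -1.84, -2.21, -2.22 and -1.51 in old mice 1 to 5 and -0.11, -2.32, -1.61 and -1.14 in old-OSKM mice 1 to 4. The 3 lowest values were those of young mice 1, 2 and 3, young mouse 4 lay level with the lower old mice, old-OSKM mice 1 and 4 were the highest, and old-OSKM mouse 2 lay below the old mice. The 4 young mice averaged -2.77 (SD 0.59), the 5 old mice -1.85 (SD 0.37) and the 4 old-OSKM mice -1.29 (SD 0.93). Old minus young was 0.92 (SE 0.41, 95% interval 0.031 to 1.81) with a Benjamini-Hochberg adjusted p of 0.866 in limma, and was not called. Old-OSKM minus young was 1.48 (SE 0.43, 95% interval 0.54 to 2.42), a fold of 2.78, with a Benjamini-Hochberg adjusted p of 0.706 in limma, which passed the study's rule and not the adjusted threshold. Old-OSKM minus old was 0.56 (SE 0.41, 95% interval -0.33 to 1.45) with a Benjamini-Hochberg adjusted p of 0.608 in limma, and 0.16 without old-OSKM mouse 1.

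The call of Nlrc5 against young mice did not survive several changes, each of which left its unadjusted limma p above 0.01. It was lost without old-OSKM mouse 1 (difference 1.08), old-OSKM mouse 4 (1.42), young mouse 2 (1.205) or young mouse 3 (1.49). It was also lost among the 10 mice of the first run of sample identifiers, where the difference was 1.78, in a fit of the 2 groups alone and with a pseudocount of 1 (difference 0.33). At about 0.155 RPKM in young mice the gene was low, and its counting error was not computed.

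Across the 13 mice, 8 of the 10 genes varied together, Psmb9 joined them through old-OSKM mouse 1, and Psmb10 did not. In the 36 pairs without Psmb10, Pearson's r ran from 0.651 to 0.984 with a median of 0.856, and Spearman's rho from -0.03297 to 0.962 with a median of 0.712. With p from 100000 permutations adjusted by Benjamini-Hochberg over the 75 relations computed, 34 of the 36 pairs passed 0.05 by r and 23 by rho. Much of this rested on old-OSKM mouse 1, since the median r was 0.632 without it (range -0.242 to 0.965) and 0.536 without the 2 mice farthest from the median of the first gene. Among the 10 mice of the first run of identifiers the median r was 0.868, and as deviations from group means it was 0.841. The 8 pairs of Psmb9 with genes other than Psmb10 had rho of -0.03297 to 0.396, of which 0 passed, and r of -0.242 to 0.318 without old-OSKM mouse 1. Among the remaining 8 genes, grouped after the values were seen, rho ran from 0.495 to 0.962 and r without old-OSKM mouse 1 from 0.342 to 0.965. The 9 pairs with Psmb10 had r between -0.468 and -0.0999, and 0 of 9 passed by either measure. Without old-OSKM mice 1 and 4, r of Psmb10 was -0.070 with H2-K1, -0.084 with H2-D1, -0.088 with B2m and -0.168 with Tapbp. Over its 9 pairs, without the 2 mice farthest from the median of the first gene, r ran from -0.521 to -0.026.

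H2-D1 and the light chain gene B2m had the highest r of the pairs in the set over all 13 mice, with r = 0.984 (permutation p = 1e-05, adjusted p = 0.000375) and rho = 0.9396 (permutation p = 2e-05, adjusted p = 0.00075), where 1e-05 is the smallest p that these permutations can give. It held with r = 0.916 without old-OSKM mice 1 and 4 and r = 0.987 in the first run of identifiers. The heavy chains H2-K1 and H2-D1 were as close, with r = 0.983 (permutation p = 1e-05, adjusted p = 0.000375) and rho = 0.962 (permutation p = 1e-05, adjusted p = 0.00075). Their r was 0.965 without old-OSKM mouse 1, where that of H2-D1 and B2m was 0.962, and 0.858 without old-OSKM mice 1 and 4. Psmb8 and the transactivator Nlrc5 had r = 0.8902 (permutation p = 2e-05, adjusted p = 0.000375) and rho = 0.852 (permutation p = 0.00047, adjusted p = 0.00497). That relation kept r = 0.786 without old-OSKM mouse 1 and young mouse 2. Tap1 and Psmb9, the divergent neighbours, had r = 0.883 (permutation p = 0.0482, adjusted p = 0.0592) and rho = 0.0165 (permutation p = 0.964, adjusted p = 0.977). Their r was -0.128 without old-OSKM mouse 1 and young mouse 3 and -0.112 without old-OSKM mouse 1 alone, so the relation rested on old-OSKM mouse 1.

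**Figure D4:**
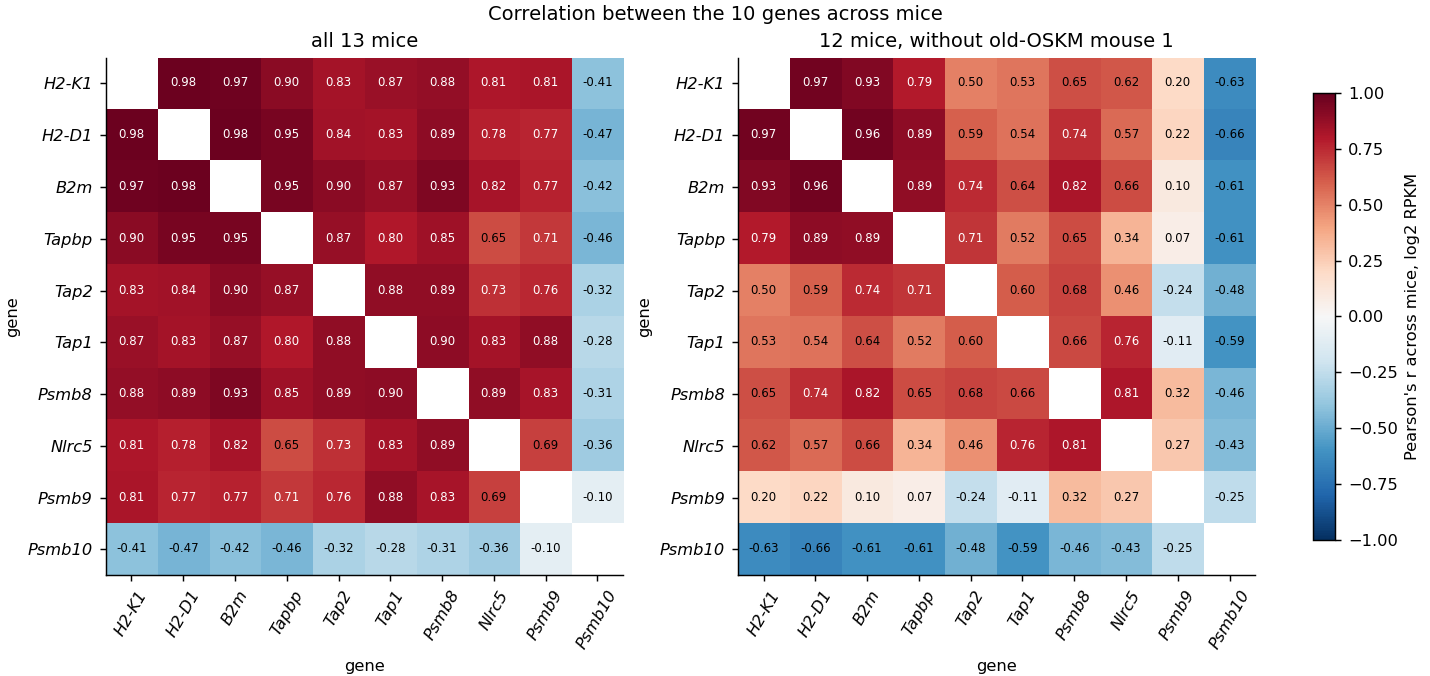
Pearson's r of log2 RPKM for each pair of the 10 genes, as colour and printed value, across all 13 mice and across the 12 mice left without old-OSKM mouse 1. The heavy chains, B2m and Tapbp keep r of 0.79 or more with each other in both panels, and Psmb9 loses its relations in the second. Psmb10 is negative in both panels, where 0 of its 9 pairs passed over 13 mice.

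Irf1 and the leukocyte marker Ptprc were highest in old-OSKM mice 1 and 4, as most of the set was. Irf1, a transcription factor of the interferon response, correlated with the 9 genes other than Psmb10 at a median r of 0.841 (0.598 without old-OSKM mouse 1, and 8 of 9 with an adjusted permutation p under 0.05). For Ptprc, the leukocyte antigen CD45, the median r was 0.857 (0.592 without that mouse, and 9 of 9 with an adjusted permutation p under 0.05). Without the 2 mice farthest from the median of the class I gene, the median r was 0.438 for Irf1 and 0.378 for Ptprc. By rho 2 of 9 passed for Irf1 and 2 of 9 for Ptprc. Irf1, the gene with the smallest p of its list in this comparison, did not overlap between old-OSKM and old mice, as 1.73% of all genes did not. Its difference was 0.57 (SE 0.16, 95% interval 0.20 to 0.93) with a Benjamini-Hochberg adjusted p of 0.547 in limma, but its fold of 1.48 missed the study's rule. The gap was narrow, from 1.025 log2 RPKM in old mouse 5 to 1.038 in old-OSKM mouse 3. Young mice, at 0.99 to 1.33, overlapped both groups. The Irf1 difference was 0.39 without old-OSKM mouse 1. In the list of 19 interferon-gamma signalling genes and class I transcription factors to which Irf1 belongs, 12 had a higher mean in old-OSKM than in old mice (36.9% of all genes), 0 were called (0.753%), 1 had an unadjusted limma p under 0.05 (8.07%), and the median was 0.030.

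Genes outside the set with the most similar pattern were sought by their r with the mean z-score of the 10 genes over 13 mice, among 8402 genes with a mean above 0 log2 RPKM. Of the 10 nearest, 9 are given here: Adgre1, Lgmn, Iigp1, H2-Ab1, Cd52, Ctss, Mpeg1, Stat2 and Unc93b1, with r from 0.944 to 0.963 and from 0.791 to 0.907 without old-OSKM mouse 1.

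Other genes of the pathway followed the set to different degrees. As background in old-OSKM minus old, 36.9% of all genes had a higher mean, 8.07% an unadjusted limma p under 0.05, and 0.753% were called. Of 21 other class I and class I-like genes, 16 had a higher mean in old-OSKM than in old mice (median 0.28, 0.12 without old-OSKM mouse 1), 4 had an unadjusted limma p under 0.05 and 1 was called, Hfe, the class I-like regulator of iron uptake. Hfe differed by 0.70 (SE 0.17, 95% interval 0.32 to 1.07) with a Benjamini-Hochberg adjusted p of 0.547 in limma, and by 0.54, under the fold threshold, without old-OSKM mouse 1. The 9 loading chaperones and trimming enzymes, of which the chaperone gene Hspa5 was the most abundant, had 8 higher means but a median of only 0.11, with 0 called and 0 at an unadjusted limma p under 0.05. Without old-OSKM mouse 1, 5 of 9 were higher, with a median of 0.014. For the PA28 activator and immunoproteasome assembly list 5 of 7 were higher (median 0.052), and Psme1 and Psme2, the inducible PA28 subunits, differed by 0.41 (SE 0.16, 95% interval 0.049 to 0.77) and 0.42 (SE 0.16, 95% interval 0.066 to 0.78) and each had an unadjusted limma p under 0.05, while 0 of 7 were called. With old-OSKM mouse 1 left out, Psme1 was at 0.23 and Psme2 at 0.24, 0 of 7 were higher at an unadjusted limma p under 0.05, and 3 of 7 means were higher, with a median of -0.011. The 3 constitutive catalytic subunits had 0 higher means (median -0.034, -0.085 without that mouse), 0 called and 0 at an unadjusted limma p under 0.05. Their sign rested on old-OSKM mouse 4, without which 3 of 3 were higher, with a median of 0.13.

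Interferon-stimulated genes and class II genes showed larger medians than the set. Their counts in old-OSKM minus old stand against 36.9% of all genes with a higher mean, 8.07% with an unadjusted limma p under 0.05 and 0.753% called. Of 23 interferon-stimulated genes 22 had a higher mean in old-OSKM than in old mice, the median was 0.69 (0.30 without old-OSKM mouse 1), 9 had an unadjusted limma p under 0.05 and 1 was called, Oasl2, at 1.07 (SE 0.33, 95% interval 0.34 to 1.801) with a Benjamini-Hochberg adjusted p of 0.547 in limma. Oasl2 was at 0.79 and not called once old-OSKM mouse 1 was left out. Old-OSKM mouse 1 was the highest of 13 mice in 23 of these 23 genes. Of 7 class II presentation genes 7 were higher (median 0.86, 0.50 without that mouse), 5 had an unadjusted limma p under 0.05, 0 were called and mouse 1 was highest in 7 of 7. Between old and young mice the medians were -0.099 for the interferon-stimulated and 0.041 for the class II genes.

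General leukocyte and macrophage markers were highest in old-OSKM mice 1 and 4, as most of the class I genes were. The part of leukocytes in the result was not tested. For the counts in old-OSKM minus old, 36.9% of all genes had a higher mean, 8.07% an unadjusted limma p under 0.05, and 0.753% were called. The 5 general leukocyte markers summed to 4.84, 3.997, 4.68 and 5.503 RPKM in young mice 1 to 4, 6.43, 4.58, 3.96, 5.43 and 4.75 in old mice 1 to 5 and 18.7, 4.47, 5.86 and 8.31 in old-OSKM mice 1 to 4. That sum was 3.94 times the median of the old mice in old-OSKM mouse 1 and 1.75 times in old-OSKM mouse 4, against 2.31 and 1.58 times for the 10 class I genes. Cd52 was the most abundant of the 5, 5 of 5 had a higher mean in old-OSKM than in old mice (median 0.67, 0.24 without old-OSKM mouse 1), 1 had an unadjusted limma p under 0.05 and 0 were called. The 9 macrophage and dendritic cell markers summed to 15.4, 13.3, 14.6 and 23.5 RPKM in young mice 1 to 4, 15.2, 14.7, 10.8, 18.5 and 14.1 in old mice 1 to 5 and 46.6, 16.5, 17.98 and 36.3 in old-OSKM mice 1 to 4. Old-OSKM mice 1 and 4 were again the highest, Lyz2 was the most abundant, 9 of 9 were higher (median 0.76, 0.48 without mouse 1), 6 had an unadjusted limma p under 0.05 and 1 was called, C1qc, at 1.02 (SE 0.32, 95% interval 0.32 to 1.71) with a Benjamini-Hochberg adjusted p of 0.547 in limma. C1qc was at 0.71 and not called once old-OSKM mouse 1 was left out.

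Lymphocyte markers were low in level but also peaked in old-OSKM mouse 1. The 9 T cell markers summed to 1.56, 0.975, 1.59 and 1.24 RPKM in young mice 1 to 4, 2.74, 2.197, 1.36, 1.94 and 1.55 in old mice 1 to 5 and 8.57, 1.501, 1.92 and 2.47 in old-OSKM mice 1 to 4. Cd3e was the most abundant, 9 of 9 were higher in old-OSKM than in old mice with a median of 0.62 that was 0.088 without old-OSKM mouse 1, and 0 of 9 were called or had an unadjusted limma p under 0.05. In old against young mice 9 of 9 T cell markers were higher too, with a median of 0.54 and 0 called. The class I set there had 5 of 10 higher and a median of 0.021. The 6 B and plasma cell markers summed to 1.83, 1.08, 2.61 and 0.8504 RPKM in young mice 1 to 4, 8.19, 4.799, 3.72, 2.86 and 2.71 in old mice 1 to 5 and 13.5, 4.24, 3.71 and 6.58 in old-OSKM mice 1 to 4. Jchain was the most abundant, the lowest sums were in young mice, 6 of 6 were higher in old-OSKM than in old mice (median 0.59, 0.14 without mouse 1) and 0 were called or had an unadjusted limma p under 0.05, whereas 6 of 6 exceeded the young mean in old mice and Jchain was called there at 2.35 (SE 0.71, 95% interval 0.80 to 3.89) with a Benjamini-Hochberg adjusted p of 0.551 in limma. In that comparison 0.886% of all genes were called. The 7 natural killer and cytotoxic markers summed to 1.503, 0.982, 1.53 and 1.42 RPKM in young mice 1 to 4, 1.54, 1.36, 1.49, 1.64 and 1.503 in old mice 1 to 5 and 3.37, 1.42, 1.37 and 1.797 in old-OSKM mice 1 to 4. Nkg7 was the most abundant, 5 of 7 were higher with a median of 0.020 (-0.046 without mouse 1, with 3 of 7 higher), and 0 were called or had an unadjusted limma p under 0.05. Of the 6 lymph node markers, led by Ccl21a, 4 were higher (median 0.46, 0.36 without mouse 1) and 0 were called or had an unadjusted limma p under 0.05, with sums of 3.99 RPKM in old-OSKM mouse 1, 3.11 in old-OSKM mouse 4 and 1.33 to 2.32 in old mice. Against young mice, 5 genes of these lists were called in old-OSKM mice, with 0.625% of all genes as background. They were 1 of 9 T cell markers, Cd3g (1.702), and 3 of 6 B and plasma cell markers, Ms4a1 (1.77), Cd79b (1.91) and Jchain (3.04). The last was 1 of 6 lymph node markers, Ccl19 (1.39), while 0 of 7 natural killer and cytotoxic markers were called. Of these 5 genes, Jchain alone was still called without old-OSKM mouse 1 (2.71). Several low markers took nearly the same lowest value in many mice, as Cd3g did at -3.09, -3.08, -3.14 and -3.15 log2 RPKM in young mice 1 to 4, and whether such values stand for undetected genes is not given in the sources used here. The difference of Cd3g from young mice is therefore against a group near such a floor.

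Markers of fat and stroma were higher in old-OSKM mice 1 and 4 than in the old mice. For the counts in old-OSKM minus old, 36.9% of all genes had a higher mean, 8.07% an unadjusted limma p under 0.05, and 0.753% were called. The 5 adipocyte markers summed to 0.525, 0.538, 1.27 and 1.17 RPKM in young mice 1 to 4, 0.547, 0.529, 0.513, 0.573 and 0.523 in old mice 1 to 5 and 5.74, 0.616, 0.603 and 2.06 in old-OSKM mice 1 to 4. Old-OSKM mouse 1 held 10.9 times the old median and was the highest mouse in 5 of 5, Adipoq was the most abundant, and the old mice it is set against were near a floor, with Adipoq at -3.28, -3.32, -3.27 and -3.29 log2 RPKM in old mice 1 to 4 and Lep at -4.27, -4.26, -4.27 and -4.26 in old mice 1, 3, 4 and 5. The list median was 1.32 (0.72 without mouse 1), with 1 called, Plin1, at 1.53 (SE 0.47, 95% interval 0.50 to 2.55) and a Benjamini-Hochberg adjusted p of 0.547 in limma. Plin1 was at 1.002 and not called once old-OSKM mouse 1 was left out. The 7 fibroblast and stellate markers summed to 29.97, 31.5, 26.9 and 53.8 RPKM in young mice 1 to 4, 24.5, 25.4, 20.1, 25.99 and 24.5 in old mice 1 to 5 and 40.9, 28.7, 26.2 and 72.8 in old-OSKM mice 1 to 4. Here old-OSKM mouse 4 was the highest, Dcn was the most abundant, 7 of 7 were higher in old-OSKM than in old mice (median 0.67, 0.62 without mouse 1) and 2 were called, Col1a1 at 0.88 (SE 0.26, 95% interval 0.31 to 1.44) and Col1a2 at 0.89 (SE 0.28, 95% interval 0.27 to 1.505). Neither was called without old-OSKM mouse 1. In old against young mice 0 of these 7 genes had a higher mean, and Col1a1 (-0.93) and Col3a1 (-1.04) were called as lower, with 0.886% of all genes called. Against young mice, old-OSKM mice had 4 of 7 higher, with a median of 0.056, or -0.27 without old-OSKM mice 1 and 4. The sum of young mouse 4, 53.8 RPKM, exceeded the 40.9 of old-OSKM mouse 1. The 5 endothelial markers had a median of 0.27 (0.29 without mouse 1) and the 6 duct markers of 0.0032 (0.047 without mouse 1), both with their highest sum in old-OSKM mouse 4 and with 0 called and 0 at an unadjusted limma p under 0.05. Without old-OSKM mice 1 and 4 the endothelial median was 0.021, with 3 of 5 higher. The duct median was then -0.032, with 2 of 6 higher. The 6 islet markers, led by Ins2, summed to 77.7 RPKM in old-OSKM mouse 1, the lowest of all mice, and 503 in old-OSKM mouse 4, the highest, with 0 of 6 higher in old-OSKM than in old mice, a median of -0.51 and 0 called or at an unadjusted limma p under 0.05. The islet median was -0.17 without old-OSKM mouse 1, with 1 of 6 higher, and -0.82 without old-OSKM mice 1 and 4, with 0 of 6 higher. Of the 10 acinar markers, the 8 enzyme genes lay among the highest ranks, where quantile normalisation sets the values (Ctrb1 at 11.11 and Cela2a at 11.005 log2 RPKM in each of 13 mice), so no difference between mice was read from them. The other 2, the transcription factor genes Ptf1a and Bhlha15, are named after their values were seen. Ptf1a was lowest in old-OSKM mouse 4, at 1.74 log2 RPKM against 2.47 to 3.14 in the other 12 mice, and Bhlha15 was lowest in old-OSKM mouse 1, at 3.39 against 3.58 to 3.81. Neither was called in old-OSKM against old mice, and their part in the class I values was not tested. Whether the fat, stromal and leukocyte RNA came with the class I RNA was not tested. The sums of old-OSKM mice 2 and 3 lay inside the range of the old mice for the leukocyte, macrophage, T cell, B cell, natural killer, lymph node, endothelial and duct lists, just above it for the fibroblast and adipocyte lists, and below it for the islet list.

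**Figure D5:**
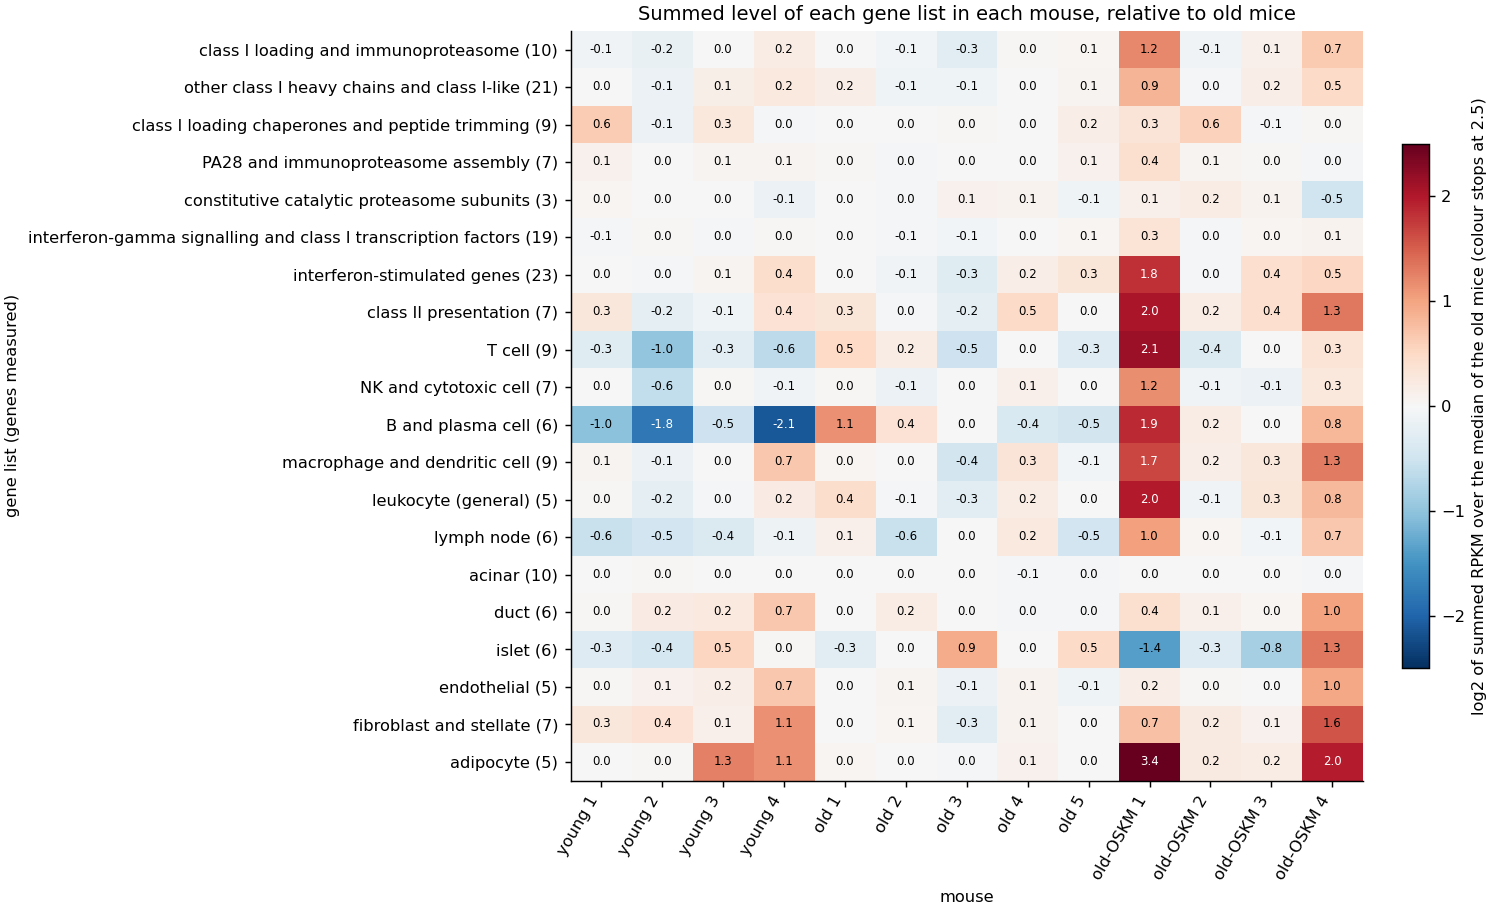
Summed RPKM of the class I set and of 19 other gene lists (rows, with the number of genes measured) in each of 13 mice (columns), as the log2 of the sum over the median of the 5 old mice; red is higher and blue lower. Old-OSKM mouse 1 is the highest mouse for the class I set (1.21), for interferon-stimulated and class II genes and for the leukocyte and adipocyte lists, and old-OSKM mouse 4 for duct, islet, endothelial and fibroblast markers.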

How the data were processed

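Total RNA from pancreas was depleted of ribosomal RNA and sequenced, and the authors aligned reads with STAR 2.3.0e to mm10, left out reads with 5 or more locations, estimated expression per isoform with Casper and summed it per Entrez gene. The deposited values are log2 RPKM, quantile normalised by the authors, so sorted values of any 2 mice differ by at most 0.0116. The study's methods state a single read number for all samples, the deposited values hold neither counts nor the depth of each library, and neither counting error nor the correction by total reads in those methods was computed here. Symbols from RefSeq (GRCm38.p6) matched 23273 of 23366 genes. Groups came from the labels. All genes of all 13 mice were fitted at once with limma 3.58.1 (R 4.3.3), with group as the only term, no pseudocount and no filter on low values, and p-values were adjusted by Benjamini-Hochberg over 23366 genes. All 10 genes of the set entered the fit, and 8 of them had a mean above 0 log2 RPKM. Ratios were tested by exact two-sided permutation of mice and correlations by 100000 permutations (Python 3.11.15, scipy 1.17.1), and figures were drawn with matplotlib 3.10.9. The limma step was tested on simulated data. From each of the 7 lists of other pathway genes and the 12 marker lists, up to 3 genes with the smallest p in a comparison, the most abundant gene and the paired constitutive subunits could be named, beside the 10 genes of most similar pattern. The members and lists were chosen with earlier results of these data known. Alternatives covered normalisation, filter, pseudocounts of 1 and 0.1, variance model, the run of sample identifiers and leaving out each mouse. A gene among those of most similar pattern and 1 searched motif are not reported here. Sequences are credited to RefSeq (GRCm38.p6) and their annotation to GENCODE vM21.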

Additional observations from a re-analysis of the deposited data

Results flagged for a closer look

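Within a group, a mouse was singled out where its gap to the nearest other mouse, divided by the range of the group, exceeded Dixon's 95% critical value. This held for H2-D1 in young mice, where young mouse 4 stood above the others with a quotient of 0.835. It held as well for H2-D1 in old mice, where old mouse 3 stood below the others with a quotient of 0.7796. Of 39 groups examined 2 were singled out, and chance flags about 1 in 20, which comes to 1.95 here. No old-OSKM mouse passed the critical value in any gene or ratio.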

How the results depend on the processing

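The median over the 10 genes in old-OSKM minus old, 0.46 as reported, ran from 0.19 to 0.65 with 1 mouse left out and was 0.067 without old-OSKM mice 1 and 4. That in old-OSKM minus young, 0.51, ran from 0.24 to 0.70 and was 0.054, and that in old minus young, 0.021, ran from -0.032 to 0.086. The counts of genes called by the study's rule stayed within 1.5 times those reported under repeated quantile normalisation, median centring, 2 groups alone, both eBayes options and the identifier run as a term or left out. By adjusted p, 19, 1 and 10 genes were called for age, for old-OSKM against old and for old-OSKM against young mice, which became 11, 0 and 4 with the run as a term, 7, 0 and 12 in the first run alone, 20, 1 and 6 with 2 groups alone, 11, 0 and 5 with only genes above 0 log2 RPKM, 14, 0 and 5 with a pseudocount of 1 and 18, 0 and 5 with 0.1. Without old-OSKM mice 1 and 4 they were 28, 5 and 14. With 1 mouse left out at a time they ranged over 5 to 29, 0 to 4 and 3 to 10. By the study's rule and with only genes above 0, which left out Psmb9 and Nlrc5, 44, 35 and 19 genes were called in the same order, where 207, 176 and 146 were called in the fit as reported. A pseudocount of 1 gave 16, 2 and 8, and of 0.1 gave 116, 77 and 76. The filter tests fewer genes, and a pseudocount shrinks differences of low genes by construction. Leaving out 1 mouse at a time, old-OSKM minus old called 94 to 338 genes, with 94 without old-OSKM mouse 1, 338 without old-OSKM mouse 2 and 284 without old-OSKM mouse 3, and old-OSKM minus young 121 to 253, with 253 without old-OSKM mouse 2. Without old-OSKM mice 1 and 4, chosen after seeing the data, old-OSKM minus old called 80 genes, and differences changed sign for H2-K1 (-0.034), Tap1 (-0.046), Psmb9 (-0.12), Psmb10 (0.094) and Nlrc5 (-0.12) against old, for Tapbp (-0.13), Psmb9 (-0.070) and Psmb10 (0.011) against young, and for the Psmb9 to Psmb6 log2 ratio against old (-0.22) and young (-0.25). In old minus young, H2-D1 became 0.012 and B2m 0.099 with the identifier run as a term, and 0.045 and 0.14 in the first run alone, where the Psmb10 to Psmb7 log2 ratio of old-OSKM minus old was 0.0036. Signs also turned with 1 mouse left out for old minus young in H2-K1 (-0.0015 to 0.12), H2-D1 (-0.063 to 0.047), B2m (-0.11 to 0.13), Tap2 (-0.11 to 0.029) and the log2 ratios Psmb8 to Psmb5 (-0.0023 to 0.26) and Psmb9 to Psmb6 (-0.081 to 0.043), and for old-OSKM minus old in Psmb9 (-0.037 to 0.68), Psmb10 (-0.068 to 0.062) and the log2 ratio Psmb10 to Psmb7 (-0.067 to 0.014). Most of these differences were near 0 to begin with, and the cause was not tested. No paired analysis was possible because the labels give no replicate numbers that groups share. The values carry no depth per library, and counting error was not computed for the lower levels, those of Psmb9 and Nlrc5 above all.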
